A study of Mus musculus with 9 samples.

Results

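The genes described here are the epidermal growth factor (EGF) receptor family and its main ligands, 10 genes taken by name from a table of 27179. They comprise 4 receptors (Egfr, Erbb2, Erbb3 and Erbb4) and 6 ligands (Areg, Ereg, Hbegf, Tgfa, Btc and Nrg1). The rule names them and uses no measured value, though it was written with earlier results of these data known, and all 10 were found in the table.

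RNA was sequenced from 3 populations of luminal epithelial cells that had been sorted from adult mouse mammary glands, with 3 libraries in each. All cells were lineage negative and were divided by CD14, a surface protein that binds bacterial lipopolysaccharide, and by a YFP reporter switched on by Cre recombinase under control of the progesterone receptor gene (PR-cre/YFP). The HR- LP libraries came from CD14+ PR-cre/YFP- cells, the HR+ LP libraries from CD14+ PR-cre/YFP+ cells and the ML libraries, by their sample labels, from CD14- PR-cre/YFP+ cells. The design text of the series instead calls the ML cells YFP-. A Cre reporter of this kind stays on in the descendants of a marked cell, so it need not show present expression of the driver. The sources used here do not say whether libraries of a population came from separate animals, and they give no strain, sex or exact age. The p-values below therefore measure the spread between these libraries, which may be technical.

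EGF family ligands are made as membrane proteins and are released by ADAM proteases. They bind receptor tyrosine kinases that work in pairs: amphiregulin (Areg), TGF-alpha (Tgfa), epigen (Epgn) and EGF bind Egfr, heparin-binding EGF (Hbegf), betacellulin (Btc) and epiregulin (Ereg) bind Egfr and Erbb4, and the neuregulins bind Erbb3 or Erbb4. Erbb2 has no known ligand and Erbb3 has a weak kinase, so both act mainly as partners. In the mouse mammary gland, amphiregulin is the EGF receptor ligand known to be required for ductal growth at puberty. It is induced by estrogen in hormone receptor-positive cells and acts on Egfr in the stroma.

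The libraries held 27219103 to 108119756 counts, and 15239 to 17735 genes had a count. On the second principal component, which held 10.1% of the variance, HR- LP replicate 3 lay at -91.6 against 15.8 and 39.5 for the other HR- LP libraries. Cd14 averaged 1114 ± 103 (SD, n = 3), 324 ± 35.2 and 24.7 ± 6.04 CPM in HR- LP, HR+ LP and ML, where CPM is the count relative to the usual fixed library total, after TMM scaling. Pgr, the progesterone receptor gene, averaged 9.41 ± 5.54, 279 ± 65.8 and 435 ± 144 CPM, so the ML libraries had the RNA of the reporter's driver gene. Below, a gene rose or fell where its adjusted p was below 0.05. The 7 luminal markers summed to 13034 to 17447 CPM over all libraries, against 33.6 to 118 CPM for 11 basal markers and 1.10 to 2.43 CPM for 9 immune markers. The 10 fibroblast markers summed to 80.0 to 137 CPM in HR- LP, 170 to 308 in HR+ LP and 206 to 361 in ML, largely through Dcn and Col6a3. Of the 10, these 2 were higher in HR+ LP than in HR- LP, against 17.2% of all genes tested. Lower ones numbered 7, against 12.8% (median log2 fold change -2.07), or 4 without HR+ LP replicate 1 or 2. The 9 endothelial markers summed to 7.69 to 15.5 CPM in HR- LP, 45.0 to 63.7 in HR+ LP and 67.8 to 83.8 in ML. Between the LP populations 1 of them was higher and 8 were not called. The 4 erythrocyte markers summed to 0.343 to 1.57, 3.84 to 11.7 and 4.62 to 12.4 CPM, and 2 were higher there. The part of these cell types in the results below was not tested.

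Areg, Ereg, Epgn and Btc lie side by side on chromosome 5 in the mouse. In genome build mm10 (GRCm38), by the RefSeq annotation, Epgn spans bases 91027517 to 91035212, Ereg 91074617 to 91093649, Areg 91139599 to 91148432 and, on the other strand, Btc 91357261 to 91402994. The gaps between neighbouring ligand genes are 39.4 kb, 45.9 kb and 208.8 kb. Of these neighbours Areg and Epgn changed with hormone receptor status and Btc did not pass the test in any comparison, so their promoter windows are shown together, with that of Egfr, the receptor that fell in all 3 comparisons. The windows run from 250 bases before to 50 bases after the gene's start and come from RefSeq on GRCm38.p6, where a window was at hand for 6 of the 10 members. Capitals mark matches to 6 motifs that were searched on both strands.
Areg, chr5:91139349-91139648, plus strand: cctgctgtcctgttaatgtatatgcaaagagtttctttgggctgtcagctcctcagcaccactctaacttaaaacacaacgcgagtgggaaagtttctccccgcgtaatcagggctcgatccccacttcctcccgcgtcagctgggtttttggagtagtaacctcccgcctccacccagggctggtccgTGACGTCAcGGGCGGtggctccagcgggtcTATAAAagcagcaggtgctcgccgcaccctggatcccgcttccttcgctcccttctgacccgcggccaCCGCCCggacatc
Epgn, chr5:91027267-91027566, plus strand: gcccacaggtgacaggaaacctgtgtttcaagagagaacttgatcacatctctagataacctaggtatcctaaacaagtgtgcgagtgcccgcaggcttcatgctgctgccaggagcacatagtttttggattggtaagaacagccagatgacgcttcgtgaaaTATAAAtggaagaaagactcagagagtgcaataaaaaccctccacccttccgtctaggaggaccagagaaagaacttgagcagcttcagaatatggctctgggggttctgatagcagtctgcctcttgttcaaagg
Btc, chr5:91402945-91403244, minus strand: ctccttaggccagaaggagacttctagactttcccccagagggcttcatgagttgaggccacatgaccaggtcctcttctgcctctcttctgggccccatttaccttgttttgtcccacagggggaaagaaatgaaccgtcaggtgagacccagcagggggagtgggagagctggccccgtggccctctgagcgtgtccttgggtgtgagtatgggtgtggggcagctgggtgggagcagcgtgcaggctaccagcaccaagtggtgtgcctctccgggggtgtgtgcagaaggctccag
Egfr, chr11:16751953-16752252, plus strand: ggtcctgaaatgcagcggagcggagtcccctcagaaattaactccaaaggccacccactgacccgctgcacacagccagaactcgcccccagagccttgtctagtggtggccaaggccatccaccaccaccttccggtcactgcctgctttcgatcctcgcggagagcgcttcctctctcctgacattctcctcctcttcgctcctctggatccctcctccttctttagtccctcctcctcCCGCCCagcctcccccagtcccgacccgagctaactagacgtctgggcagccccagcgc
The Areg window held a cyclic AMP response element (CRE, TGACGTCA) at -61 relative to the start, and 1.79% of 32851 mouse windows of the same length held that motif. It also held a TATA box (TATAAA), present in 13.6% of windows, at -31. GC boxes (GGGCGG), present in 35.7% of windows, lay at -52 and 38, the second on the minus strand. The Epgn window held a TATA box at -86, the Egfr window a GC box at -9 on the minus strand, and the Btc window none of the 6 motifs. The AP-1 motif (TGANTCA) was searched as well and occurs in 7.81% of windows. A forkhead motif (TGTTTAC) occurs in 3.65% of them. A full palindromic estrogen response element occurs in 0.0700%. None of the 6 member windows held AP-1, the forkhead motif or the estrogen response element. A match describes letters in this window and nothing more.

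The receptors fell into a pair whose RNA was low in ML and a pair that was not. Egfr (chromosome 11, bases 16752203 to 16913907) encodes the receptor for EGF, amphiregulin and TGF-alpha. Its level was 87.4, 178 and 158 CPM in the HR- LP libraries, 51.3, 45.4 and 53.8 CPM in HR+ LP, and 1.17, 1.21 and 1.27 CPM in ML. No library of one population reached the range of another. Egfr was 2.81-fold lower in HR+ LP than in HR- LP (log2 fold change -1.49, SE 0.22, edgeR quasi-likelihood adjusted p = 0.000608), and 41.1-fold lower in ML than in HR+ LP (-5.36, SE 0.28, adjusted p = 6.51e-07). From HR- LP to ML the difference was 115-fold (-6.85, SE 0.29, adjusted p = 3.81e-08). In these bulk libraries, fewer cells with a transcript and less of it per cell cannot be told apart.

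Erbb4 (chromosome 1, bases 68031884 to 69108576) encodes the neuregulin receptor that, in the mouse gland, is needed for lactation. Its level was 8.74, 44.5 and 32.2 CPM in HR- LP, 10, 10.4 and 13.1 CPM in HR+ LP, and 0.167, 0.0851 and 0.353 CPM in ML, where the libraries held 24 counts in all. Both LP populations lay above every ML library, and HR- LP replicate 1 lay below all HR+ LP libraries. Erbb4 was 54.8-fold lower in ML than in HR+ LP (log2 fold change -5.78, SE 0.66, adjusted p = 0.000145). Without ML replicate 3 the log2 fold change was -6.53 (adjusted p = 0.000587). With limma voom this call was lost (-5.92, SE 2.39, adjusted p = 0.248; adjusted p 2.16e-21 to 0.248 over 18 alternatives). The difference between the LP populations did not pass (-1.35, SE 0.49, 95% interval -2.42 to -0.28, adjusted p = 0.0577), but without HR- LP replicate 1 it was -1.78 with an adjusted p of 0.00165.

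Erbb2 (chromosome 11, bases 98412484 to 98437716) encodes the ligand-less partner receptor. Its level was 100, 90.4 and 85.4 CPM in HR- LP, 171, 169 and 137 CPM in HR+ LP, and 206, 184 and 149 CPM in ML. HR- LP lay below all other libraries, while HR+ LP and ML overlapped. Erbb2 was 1.73-fold higher in HR+ LP than in HR- LP (log2 fold change 0.79, SE 0.15, adjusted p = 0.00300) and 1.95-fold higher in ML than in HR- LP (0.96, SE 0.15, adjusted p = 0.000415). Between ML and HR+ LP the difference was 0.17 (95% interval -0.16 to 0.51, adjusted p = 0.801). Its exons share 9 bases with Mien1 on the other strand, and the library kit does not keep strand.

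Erbb3 (chromosome 10, bases 128567523 to 128589635) encodes the neuregulin receptor that recruits PI3-kinase. Its level was 166, 319 and 186 CPM in HR- LP, 333, 367 and 315 CPM in HR+ LP, and 308, 385 and 320 CPM in ML. HR- LP replicate 2 lay within the range of the other populations. Erbb3 did not pass the test between the LP populations (log2 fold change 0.60, SE 0.22, adjusted p = 0.0666), although without HR- LP replicate 2 it did (0.94, adjusted p = 0.00231). It was 1.51-fold higher in ML than in HR- LP at the edge of the threshold (0.59, SE 0.22, adjusted p = 0.0499), a call that held in 6 of 17 alternatives (adjusted p 0.00108 to 0.173). Between ML and HR+ LP the 95% interval of the log2 difference was -0.49 to 0.49.

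**Figure D1:**
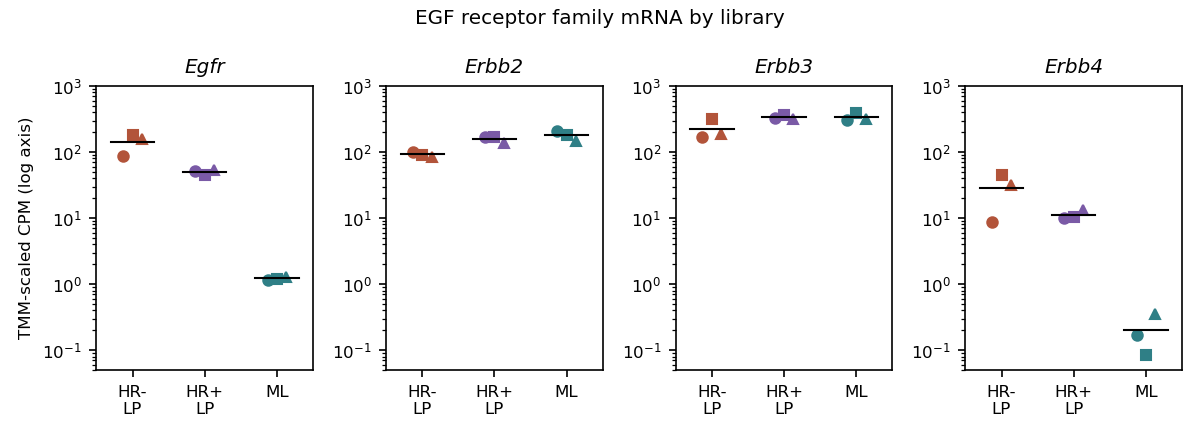
TMM-scaled CPM (log axis) of the 4 receptor genes in each library, with circles, squares and triangles for replicates 1, 2 and 3 and a line at the mean. Egfr and Erbb4 average 1.22 and 0.202 CPM in ML, far below both LP populations, while Erbb2 and Erbb3 average 179 and 338 CPM there.

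Levels were set against each other per kilobase of the exon length deposited with the counts. By this measure Erbb3 had the largest share of the summed receptor level in every library, with a mean of 53.6% ± 5.01 (SD, n = 3) in HR- LP, 66.6% ± 1.44 in HR+ LP and 69.9% ± 4.31 in ML. Egfr held 21.2% ± 4.10, 6.21% ± 0.950 and 0.159% ± 0.0193. The Erbb2 share was 19.1% ± 6.39, 25.1% ± 1.76 and 29.9% ± 4.33. Per kilobase, Erbb2 was 0.656 to 1.47 times the Egfr level in HR- LP, 3.28 to 4.80 times in HR+ LP and 151 to 226 times in ML. With the longest single transcript as the length, the ratios were 1.04 to 2.33, 5.18 to 7.58 and 239 to 357, so Erbb2 lay above Egfr in every HR- LP library only by that length. In ML the receptor RNA was thus almost wholly Erbb2 and Erbb3. The summed receptor level overlapped between populations, at 77.0 to 135, 117 to 135 and 110 to 133 CPM per kilobase.

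Among the ligands, Areg and Hbegf had opposite patterns. Areg was at 12.6, 36.7 and 16.3 CPM in HR- LP, 610, 708 and 817 CPM in HR+ LP, and 916, 1016 and 1207 CPM in ML. The 3 populations did not overlap. Areg was 32.4-fold higher in HR+ LP than in HR- LP (log2 fold change 5.02, SE 0.38, adjusted p = 7.90e-06) and 47.6-fold higher in ML than in HR- LP (5.57, SE 0.39, adjusted p = 9.39e-07). Without HR- LP replicate 2, the highest of its population, these log2 values were 5.62 and 6.18 (adjusted p = 9.95e-07 and 2.61e-07). Between ML and HR+ LP the fit of all 9 libraries did not call it (0.56, SE 0.32, 95% interval -0.16 to 1.27, adjusted p = 0.575). Same-numbered ML and HR+ LP libraries had ratios of 1.5, 1.43 and 1.48. A fit of these populations alone called Areg higher in ML (0.56, SE 0.15, adjusted p = 0.0466), as did the same fit with the replicate number as a block (0.56, SE 0.053, adjusted p = 3.56e-05). The labels do not say what the replicate number marks. The block was chosen from these same counts and added after they were seen, so its p is not independent support.

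Hbegf (chromosome 18, bases 36504927 to 36515805) encodes a ligand of Egfr and Erbb4. Its level was 256, 434 and 448 CPM in HR- LP, 93.1, 150 and 187 CPM in HR+ LP, and 33.3, 39.8 and 41.5 CPM in ML. The populations again did not overlap, in the reverse order to Areg. Hbegf was 2.65-fold lower in HR+ LP than in HR- LP (log2 fold change -1.40, SE 0.27, adjusted p = 0.00270) and 3.75-fold lower in ML than in HR+ LP (-1.91, SE 0.27, adjusted p = 0.000828). Hbegf is an early response gene in many cells. The 20 immediate early and dissociation genes held 4.37 to 7.11% of the counts in HR- LP, 3.83 to 4.78% in HR+ LP and 2.42 to 3.48% in ML, and their part in the Hbegf difference was not tested.

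Tgfa (chromosome 6, bases 86195038 to 86275744), a ligand of Egfr, was at 6.03, 7.68 and 34.0 CPM in HR- LP, 33.9, 33 and 42.0 CPM in HR+ LP, and 38.7, 39.0 and 42.1 CPM in ML. HR- LP replicate 3, the library that stood apart on the second component, lay at the level of HR+ LP. With it, Tgfa did not pass between the LP populations (log2 fold change 1.21, SE 0.51, adjusted p = 0.101) or between ML and HR- LP (1.35, SE 0.52, adjusted p = 0.0538). Without it, Tgfa passed in both, at 2.40 (adjusted p = 1.88e-05) and 2.54 (adjusted p = 2.94e-06). It shares 118 exon bases with Gm43917 on the other strand.

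Btc, a ligand of Egfr and Erbb4, was at 20.8, 18.0 and 13 CPM in HR- LP, 17.3, 12.2 and 12.3 CPM in HR+ LP, and 10.8, 13.7 and 14.7 CPM in ML. All 3 populations overlapped and no comparison passed, the widest being ML against HR- LP (log2 fold change -0.40, 95% interval -0.92 to 0.11, adjusted p = 0.187). Nrg1 (chromosome 8, bases 31807452 to 32891609), a neuregulin known in the gland from basal cells, was low throughout, at 0.827, 0.706 and 2.33 CPM in HR- LP, 0.562, 0.202 and 0.701 CPM in HR+ LP, and 0.201, 0.255 and 0.0471 CPM in ML. Its fall from HR- LP to ML (-2.92, SE 0.98, adjusted p = 0.0320) held in 8 of 16 alternatives (adjusted p 0.00382 to 0.115), and was lost without HR- LP replicate 3 (-2.18, adjusted p = 0.115). Summed basal markers were at 73.2 to 118 CPM in HR- LP, 41.5 to 60.2 in HR+ LP and 33.6 to 52.5 in ML. In ML against HR- LP, 5 of the 11 were lower and 1 higher, against 21.3% and 23.3% of all genes tested, and 5 were not called. Between the LP populations 4 fell and 0 rose, against 12.8% and 17.2%. Only 2 fell there without HR- LP replicate 2, HR+ LP replicate 1 or HR+ LP replicate 3. The part of the basal markers in the Nrg1 values was not tested. The basal keratin gene Krt5 averaged 2.25, 4.76 and 6.36 CPM in HR- LP, HR+ LP and ML. Nrg1 also shares 482 exon bases with Gm26578 on the other strand.

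Ereg was close to the limit of detection. The HR- LP libraries had 0 counts, which allows up to 0.0605, 0.0307 and 0.107 CPM at a limit of 3 counts for each library, and covers counting error only. The HR+ LP libraries had 15, 9 and 3 counts and the ML libraries 0, 31 and 6. Too few counts were present for the test, so Ereg has none. Its neighbour Areg, 45.9 kb away, was at 610 CPM or more in those populations.

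**Figure D2:**
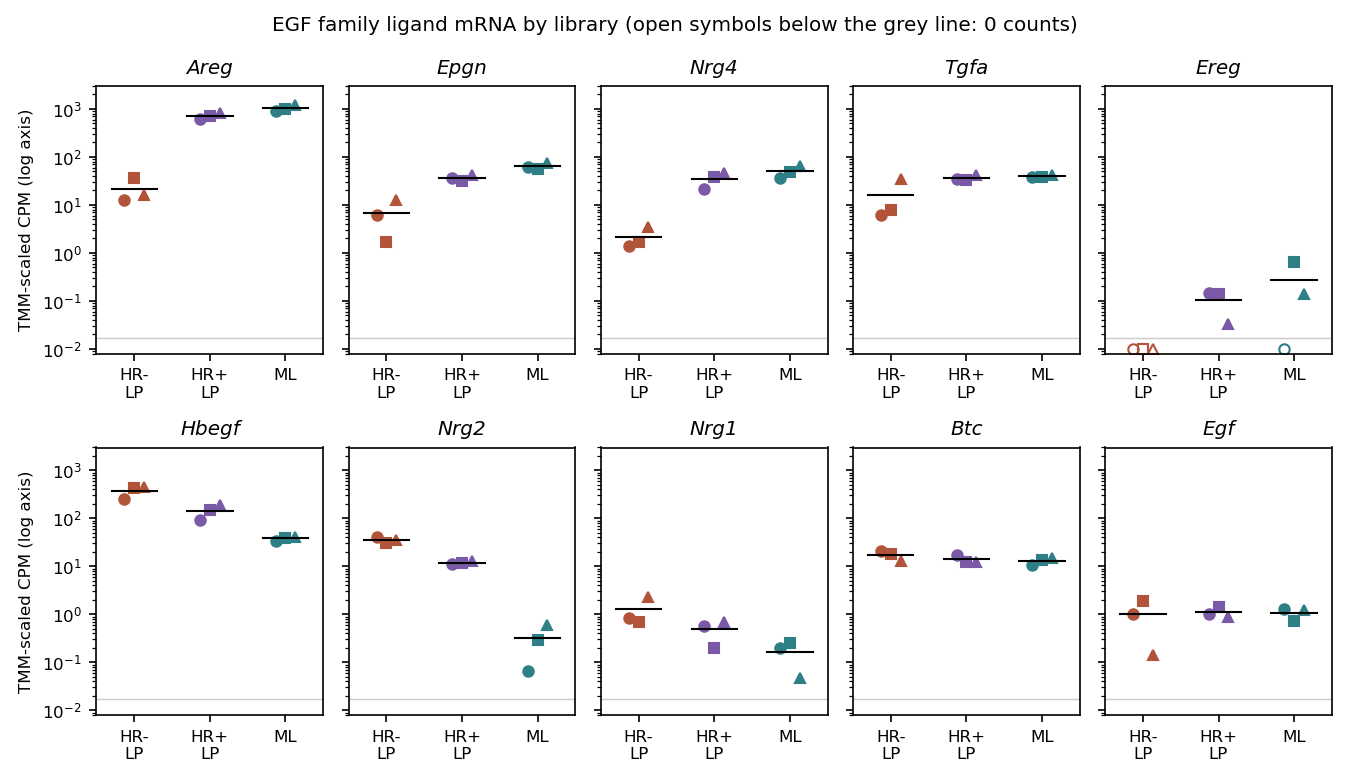
TMM-scaled CPM (log axis) of 10 EGF family ligand genes in each library, with circles, squares and triangles for replicates 1, 2 and 3, a line at the mean and open symbols for 0 counts. Areg rises from a mean of 21.9 to 1046 CPM from HR- LP to ML while Hbegf falls from 379 to 38.2 CPM.

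Of the 5 other ligands of the family, outside the 10, 4 were tested. Between the LP populations 2 rose and 1 fell, against 17.2% and 12.8% of all genes tested. Nrg4, an Erbb4 ligand, was at 1.41, 1.72 and 3.43 CPM in HR- LP, 21.0, 38.3 and 45.3 CPM in HR+ LP, and 36.5, 49.6 and 65.0 CPM in ML. Epgn was at 6.21, 1.65 and 12.7, at 36.2, 31.6 and 41.1, and at 62.5, 56.0 and 75.9 CPM. Both rose between the LP populations, by 4.04 (SE 0.40, adjusted p = 4.02e-05) and 2.44 (SE 0.53, adjusted p = 0.00534) on the log2 scale. Without HR- LP replicate 3 the Epgn rise was 3.24 (adjusted p = 0.000700). Nrg2, which binds Erbb3 and Erbb4, was at 40.2, 30.7 and 35.7 CPM in HR- LP, 11.1, 11.8 and 13 CPM in HR+ LP, and 0.0670, 0.298 and 0.589 CPM in ML. It fell in both steps, by 1.57 (SE 0.33, adjusted p = 0.00446) and by 5.15 (SE 0.42, adjusted p = 1.10e-05); the second was -5.88 without ML replicate 3 (adjusted p = 1.17e-05). Egf averaged 1.02 to 1.11 CPM and was not called, and Nrg3 had no count in any library. From HR+ LP to ML, 0 of the 4 tested ligands were called higher, against 0.0943% of all genes tested. Only Nrg2 was called lower, against 6.70%. With the replicate block in a fit of these populations the counts were 2 and 1. That fit also called more genes in both directions over all genes, with its totals given below.

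Per kilobase, Hbegf made up 77.0% ± 2.88 (SD, n = 3) of the summed level of all 11 ligands in HR- LP and Areg 8.66% ± 3.86. In HR+ LP the shares were 8.32% ± 1.56 and 83.6% ± 1.31, and in ML 1.67% ± 0.113 and 90.2% ± 0.184. The ratio of Areg to Hbegf ran from 0.0723 to 0.168 in HR- LP, 8.67 to 13 in HR+ LP and 50.5 to 57.6 in ML. The summed ligand level was 146 to 238 CPM per kilobase in HR- LP, 598 to 827 in HR+ LP and 847 to 1118 in ML. Most of that rise is Areg RNA.

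**Figure D3:**
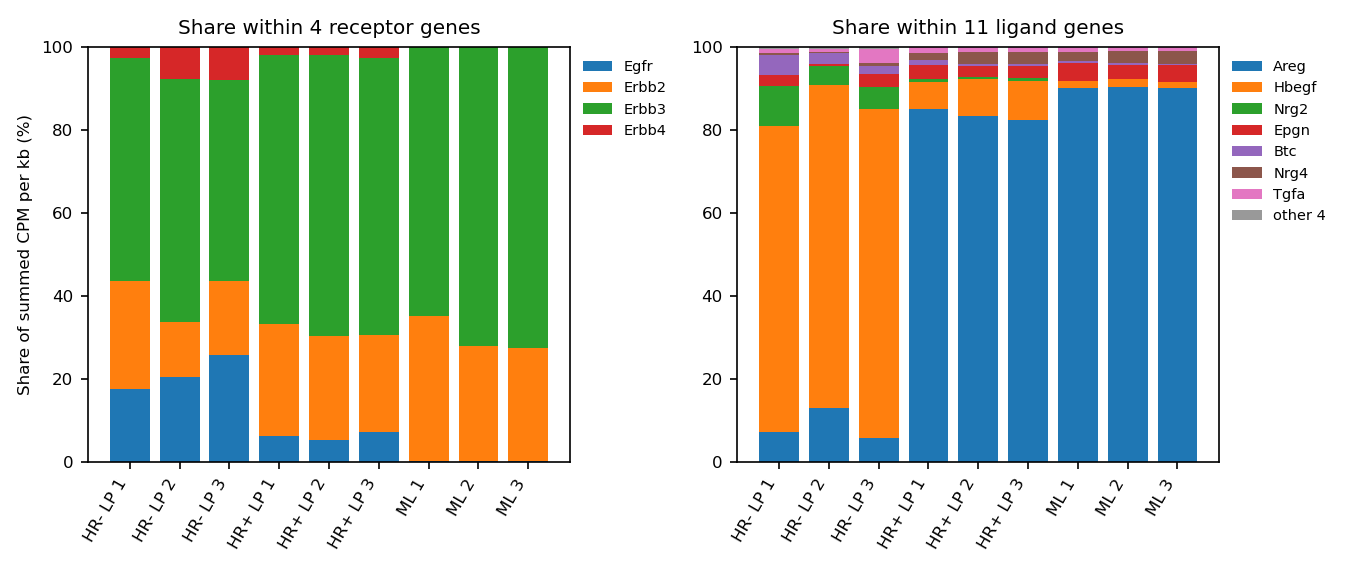
Share (%) of each gene in the summed CPM per kilobase of the 4 receptors (left) and of 11 ligands (right), 1 bar per library. Egfr shrinks from 17.6 to 25.7% of receptor RNA in HR- LP to 0.142 to 0.180% in ML, and Hbegf gives way to Areg among the ligands.

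Across the 10 members, 9 had enough counts for the test. Between HR+ LP and HR- LP, 2 members were higher (Erbb2 and Areg), against 17.2% of the 15910 genes tested, and 2 were lower (Egfr and Hbegf), against 12.8%. The other 5 were not called. Between ML and HR+ LP, 0 members were higher by edgeR, against 0.0943% of all genes, and 0 had an unadjusted p below 0.05 in that direction, while 3 were lower (Egfr, Erbb4 and Hbegf), against 6.70%. DESeq2 and limma voom also called 0 higher. The fit of these populations alone called 1 member, Areg, higher, as did that fit with the replicate block, which called 1422 genes higher and 2182 lower where the fit of all libraries called 15 and 1066. Replicate numbers were taken to pair these libraries from the counts alone, as the labels do not say what the numbers mark. The blocked counts are given beside each list below as a description. Between ML and HR- LP, 3 were higher (Erbb2, Erbb3 and Areg), against 23.3%, and 4 lower (Egfr, Erbb4, Hbegf and Nrg1), against 21.3%. The median log2 fold change of the tested members was -0.31, -0.10 and -0.40 in these comparisons, beside 0.0054, 0.011 and 0.029 over all genes tested. The comparisons share libraries and are not independent of each other. With so few members, these counts describe the family and are not a test of it.

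**Figure D4:**
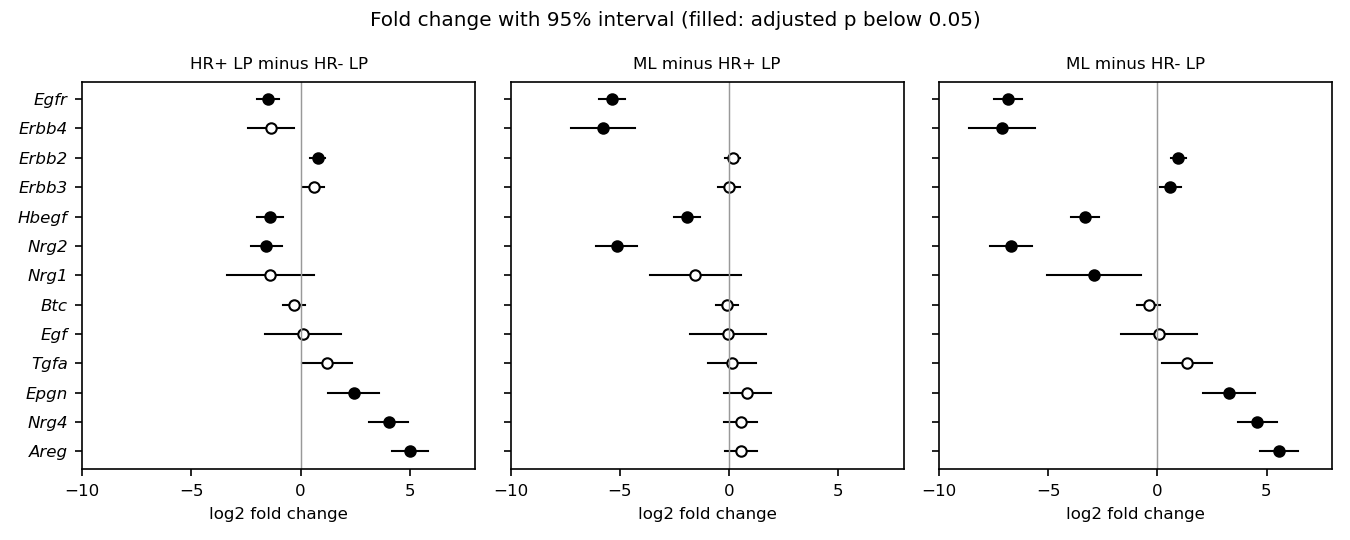
Log2 fold changes with 95% intervals for the 9 tested members and 4 other ligands in the 3 comparisons, filled where the adjusted p was below 0.05. Egfr lies at -1.49, -5.36 and -6.85, Areg at 5.02, 0.56 and 5.57, and Btc near 0 throughout.

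On a log2 scale, the members called between ML and HR- LP also differed in where HR+ LP lay between those populations. On log2 CPM, with HR- LP at 0 and ML at 1, HR+ LP was at 0.90 for Areg and 0.82 for Erbb2, close to ML. It was at 0.21 for Egfr and 0.16 for Erbb4, close to HR- LP, at 0.43 for Hbegf and at 0.48 for Nrg1. For Erbb3 it was at 1.01. On this log2 scale, HR+ LP libraries combined Areg near its ML level with Egfr nearer to its HR- LP level. On mean CPM, HR+ LP lay nearer to ML than to HR- LP for every one of these members. In HR- LP, HR+ LP and ML, Areg averaged 21.9, 712 and 1046 CPM and Egfr 141, 50.2 and 1.22 CPM. These libraries pool cells, so the values do not show whether single cells held both RNAs.

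Genes for proteins that release the ligands were called in both directions. Of all genes tested in the fit of 9 libraries, 17.2% were higher and 12.8% lower in HR+ LP than in HR- LP. These shares were 0.0943% and 6.70% in ML against HR+ LP, and 23.3% and 21.3% in ML against HR- LP. Counts from that fit in this and the following lists are to be read beside them. Counts with the replicate block or leaving out a library come from other fits, so these shares do not apply to them. The fit with the replicate block called more genes in both directions over all genes, as given above. Of 8 tested genes for sheddases and their trafficking factors, 4 were higher and 2 lower in HR+ LP than in HR- LP (median 0.20). Adam10, the main sheddase of EGF and betacellulin, was at 111 ± 26.9 CPM in HR- LP and 606 ± 17.8 CPM in HR+ LP (a log2 rise of 2.45, SE 0.18, adjusted p = 7.69e-06). Adam17, the main sheddase of amphiregulin, TGF-alpha and Hbegf, rose by 0.61 (SE 0.13, adjusted p = 0.00445) and Adam15, a related protease, by 0.72 (SE 0.14, adjusted p = 0.00341). Rhbdf1 and Rhbdf2, the iRhoms that bring Adam17 to the cell surface, fell by 0.75 (SE 0.13, adjusted p = 0.00136) and 0.82 (SE 0.20, adjusted p = 0.0120), the latter not called without HR+ LP replicate 1 (adjusted p = 0.0563). Between ML and HR+ LP, 0 genes were higher and 1 lower: Rhbdf1 (-0.59, adjusted p = 0.0151), which held in 14 of 18 alternatives and was lost without HR+ LP replicate 2 or 3 or ML replicate 1 or 2. With the replicate block 4 were higher and 2 lower there. Without adjustment, 2 genes (Adam8 and Adam10) had a p below 0.05 in the higher direction, and 0 genes of the pathway lists that follow did; DESeq2 and limma voom called 0 higher in each list. In ML against HR- LP the counts were again 4 higher and 2 lower.

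Feedback inhibitors of the receptors moved apart as well. Of 23 tested, 5 were higher and 8 lower in HR+ LP than in HR- LP (median -0.21). From HR+ LP to ML, 0 were higher and 5 lower (median -0.082), or 2 and 8 with the replicate block. Against HR- LP, ML had 6 higher and 10 lower (median -0.27). Errfi1, which encodes the Egfr and Erbb2 kinase inhibitor Mig6, went from 4885 ± 1316 to 1652 ± 467 to 363 ± 58.9 CPM, and fell in both steps (-1.56, adjusted p = 0.00111, and -2.19, adjusted p = 0.000210). The ERK inhibitors Spry2 and Spry4 fell in both steps, from 322 ± 88.6 to 104 ± 36.3 to 16.1 ± 1.77 CPM and from 41.5 ± 4.39 to 17.5 ± 2.82 to 4.50 ± 0.207 CPM. Sh3kbp1, the adaptor that links Egfr to its endocytosis, fell from 22.6 ± 0.787 to 7.16 ± 1.13 to 0.411 ± 0.145 CPM. Socs3 and Spred3, which dampen cytokine and ERK signalling, were higher in HR+ LP by 2.35 (adjusted p = 1.67e-05) and 2.51 (adjusted p = 0.000396). Socs3 is also in the list of immediate early and dissociation genes, where it was the only gene called higher between the LP populations. The part of that list in the changes of the feedback inhibitors was not tested.

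Several ERK pathway target genes fell with Egfr and Hbegf. Of 16, 3 were higher and 7 lower in HR+ LP than in HR- LP (median -0.95). From HR+ LP to ML, 0 were higher and 8 lower (median -0.98), or 3 and 10 with the replicate block. Against HR- LP, ML had 3 higher and 10 lower (median -1.92). The phosphatase gene Dusp5 went from 917 ± 324 to 293 ± 106 to 34.2 ± 1.33 CPM. Phlda1 and Ier3, both growth factor response genes, fell in both steps, by 1.47 and 1.59 for Phlda1 and by 1.42 and 1.42 for Ier3. Epha4, an ephrin receptor, was 55.2 ± 2.69, 19.9 ± 4.35 and 0.211 ± 0.309 CPM. Its fall between the LP populations held in 12 of 17 alternatives. It was lost with DESeq2 and without HR- LP replicate 2 or any 1 of the HR+ LP libraries. In the other direction, Dusp4, also a phosphatase of ERK, rose from 65.6 ± 7.65 to 265 ± 55.2 CPM (adjusted p = 3.12e-05) and the ETS factor Etv4 from 1.45 ± 1.19 to 12.4 ± 2.66 CPM (log2 fold change 3.10, adjusted p = 0.000781, and 4.04 without HR- LP replicate 1). Ier3 and Egr1 are also in the list of immediate early and dissociation genes, whose counts were 1 higher and 12 lower of 20 between the LP populations (7 lower without HR+ LP replicate 3), 0 and 8 in ML against HR+ LP (0 and 16 with the replicate block, 5 lower without HR+ LP replicate 1 or 2 or ML replicate 3) and 1 and 15 in ML against HR- LP. The part of that list in the changes of the ERK target genes was not tested.

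Adaptors and signal relays were called in both directions. Of 34, 6 were higher and 10 lower in HR+ LP than in HR- LP (median -0.18). The lower ones numbered 3 without HR+ LP replicate 2, 5 without HR+ LP replicate 3 or HR- LP replicate 2, and 6 without HR+ LP replicate 1. Over all genes, lower calls there also moved, from 2033 in the fit of 9 libraries to 1211 to 2290 leaving out a library. Between the LP populations, 17.2% of all genes tested were higher and 12.8% lower. The share of higher calls in this list was near the former. From HR+ LP to ML, 0 were higher and 3 lower (median -0.10; 1 lower without HR+ LP replicate 1 or 3 or ML replicate 2), or 5 and 12 with the replicate block, and against HR- LP the ML counts were 7 and 14 (median -0.31). Gab1, a docking protein for Egfr signalling, fell from 400 ± 80.0 to 187 ± 25 to 78.3 ± 16.5 CPM. Map2k1, the ERK kinase MEK1, rose from 47.9 ± 2.08 to 93.9 ± 5.08 CPM (0.97 on the log2 scale, adjusted p = 0.000244). The PI3-kinase subunit Pik3r3 rose by 2.36 (adjusted p = 0.000879), while Pik3cb fell by 0.64 (adjusted p = 0.00386). Gab2, a relative of Gab1, and Pik3cb were lower in ML than in HR+ LP (-0.81 and -0.52, adjusted p = 0.0173 and 0.0350), which held in 14 and 10 of 18 alternatives. Gab2 lost that call without HR+ LP replicate 1 or 3 or ML replicate 1 or 2. Pik3cb lost it with RLE size factors, with library totals, and without any 1 of the 6 HR+ LP and ML libraries.

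**Figure D5:**
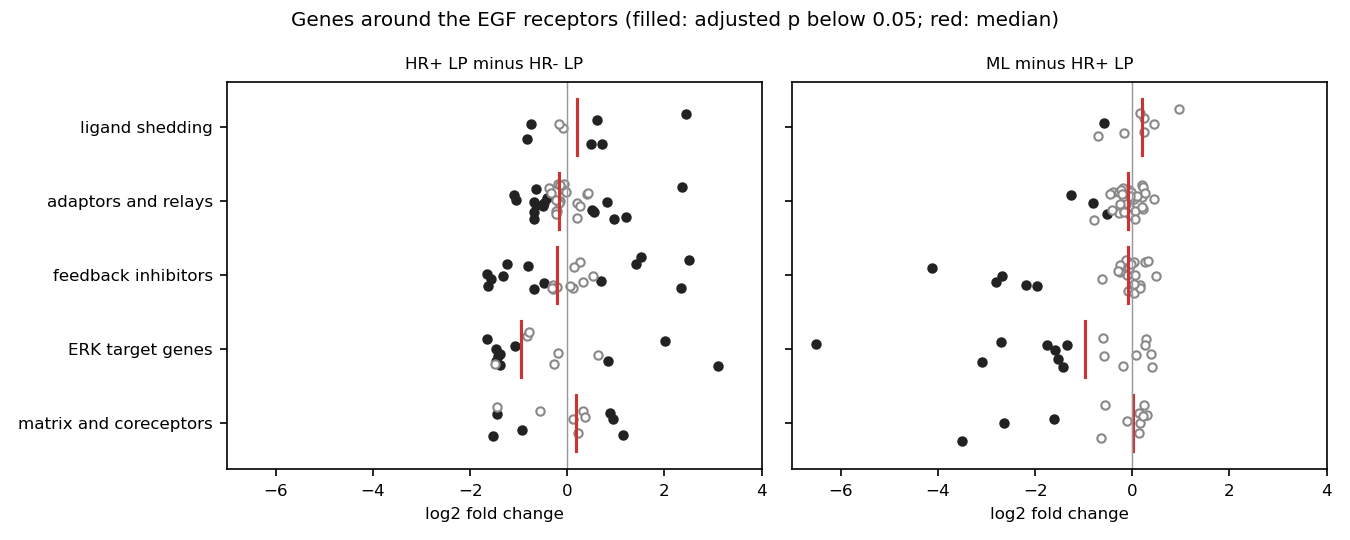
Log2 fold changes of tested genes in 5 pathway lists, in HR+ LP against HR- LP (left) and in ML against HR+ LP (right), 1 point per gene, filled where the adjusted p was below 0.05, with the list median in red. ERK target genes have medians of -0.95 and -0.98, while the other lists lie near 0.

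Among 12 genes for matrix and membrane partners of the receptors, 3 were higher and 3 lower in HR+ LP than in HR- LP (median 0.17; 5 lower without HR- LP replicate 1). From HR+ LP to ML, 0 were higher and 3 lower (median 0.013), or 3 and 5 with the replicate block, and against HR- LP the ML counts were 5 and 5 (median 0.20; 3 higher without HR+ LP replicate 1 or 3 or ML replicate 1 or 2). Cd44, a hyaluronan receptor that can carry Hbegf, fell from 263 ± 31.8 to 96.2 ± 12.0 to 31.6 ± 5.27 CPM. Muc1, a mucin that binds Egfr, fell from 317 ± 19.6 to 110 ± 12.3 to 17.7 ± 8.41 CPM. Muc4, the mucin partner of Erbb2, was lower in ML than in HR+ LP (-3.50, SE 0.82, adjusted p = 0.0244), which held in 14 of 18 alternatives. The Muc4 call was lost with limma voom and without HR+ LP replicate 3 or ML replicate 1 or 2. Without ML replicate 3 the log2 fold change was -4.46. Cd82, a tetraspanin that dampens Egfr signalling, rose from 212 ± 3.39 to 388 ± 27.6 CPM, and Adgrg1, an adhesion receptor, from 92.9 ± 0.808 to 179 ± 13.8 CPM.

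Amphiregulin is induced downstream of ovarian hormones, so a list of hormone receptor genes and genes tied to them was followed beside Areg. Of 9, 8 were tested, and all 8 were higher in HR+ LP than in HR- LP (median 4.50) and in ML than in HR- LP (median 4.98). Between ML and HR+ LP, 0 were called in either direction (median 0.42; 0 at an unadjusted p below 0.05 by edgeR, and 0 by DESeq2 and limma voom), but 7 were higher with the replicate block. Greb1, an estrogen-induced gene, lost its calls against HR- LP with limma voom (adjusted p = 0.183 in HR+ LP and 0.0886 in ML). Gata3, a luminal transcription factor gene, was called in 14 of 17 alternatives in each, and not without HR- LP replicate 2 (nor without replicate 1 or 2 of the population compared with it). Esr1, the estrogen receptor gene, went from 15.1 ± 5.83 to 123 ± 8.83 to 162 ± 4.13 CPM, and Prlr, the prolactin receptor gene, from 198 ± 95.1 to 4130 ± 494 to 6313 ± 1247 CPM. Foxa1, a cofactor of the estrogen receptor, went from 54.7 ± 15.6 to 354 ± 62.6 to 477 ± 110 CPM. The sort used a Pgr-driven reporter, so the level of such genes is tied to how the cells were chosen.

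The genes whose pattern was most like that of a member were found by Pearson's r of log2 CPM over the 9 libraries, as a description. For Hbegf they were Errfi1 (r = 0.998), Fosl2 (0.998) and Plk3 (0.997). For Areg they were Got1, Cxcl15 and Tspan13, each at 0.998. Egfr was most like Papln, Pgm5 and Itga8, each at 0.996, and Erbb4 most like Ttc28 (0.992), Slc1a1 (0.987) and Nr4a2 (0.986). For Erbb2 the nearest were Mmp14 (0.997), Bst2 (0.997) and Cox15 (0.996), and for Erbb3 Atg9a (0.992). The 9 points come from 3 populations of unequal level, and the values describe those levels. Tgfa, Btc and Nrg1 had nearest genes at 0.977, 0.969 and 0.935.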

How the data were processed

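Per the labels' protocols, DNase-treated RNA from a miRNeasy kit (50 ng or more) entered Illumina's TruSeq v2 preparation, which keeps no strand, for each of 9 libraries. The deposited values are the authors' raw read counts for each gene. The submitters' processing notes name featureCounts and mm10; the aligner and annotation are not given in the sources used here. Of 27179 gene IDs, 25275 (93.0%) matched a RefSeq symbol.

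Genes passing edgeR's filterByExpr (15910) were compared with edgeR's quasi-likelihood test on all 9 libraries with TMM scaling, with Benjamini-Hochberg adjustment over all of them and a threshold of 0.05. CPM levels were computed from the deposited counts and divided by the deposited exon length where genes were compared. Python 3.11.15 with matplotlib 3.10.9 and R 4.3.3 were used, with DESeq2 1.42.0, limma 3.58.1 and edgeR 4.0.16. The code was tested on simulated data in which 100 genes were changed 2-fold and 100 genes 4-fold in HR+ LP. Against HR- LP, 32 and 73 of these were called, with 7 false calls. Far more genes were called in the real libraries, so these rates need not apply to them. Alternatives were RLE size factors, library totals, other filters, DESeq2, limma voom, fits of 2 populations, a replicate block and leaving out each library.

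Same-numbered HR+ LP and ML libraries deviated together from their group means (r = 0.183, 0.121 and 0.189 across genes), so by a rule of r over 0.1 in all pairs the numbers were taken to pair them, from the data alone. Values for HR- LP did not meet it (0.0254 to 0.147). The block fit of these 2 populations was added after seeing the data. Named genes were the 10 members, up to 4 genes with the smallest p in each of 9 pathway lists per comparison, and the 3 genes most like each member with a mean log2 CPM over 3 (prior count 2). Several of these are given as counts only. Krt5, Egr1, Adam8, Greb1, Gata3, Egf and Nrg3 are named outside this rule, after their values were seen. Gm19619, Ankhd1, Slc35a4, E230025N22Rik and Apbb3 are also outside the rule and are named for their position near members. The members and lists were chosen with earlier results of these data known.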

Additional observations from a re-analysis of the deposited data

How the results depend on the processing

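Of 465 member fold changes under alternatives, 418 kept their direction and side of the threshold, 20 lost the call, 17 gained it and 10 changed sign. The sign changes were all in ML against HR+ LP, where neither gene was called. Erbb3, at -0.0024 in the fit of all libraries, was 0.032 with RLE size factors and with DESeq2, 0.047 with library totals, 0.0012 with a filter of CPM over 1 in 3 libraries, 0.0011 in the fit of 2 populations, and -0.10 to 0.059 leaving out a library. Btc was -0.19 to 0.091 leaving out a library. The cause was not tested.

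Members called higher in HR+ LP than in HR- LP numbered 4, not 2, with limma voom and with the replicate block. In ML against HR+ LP, 1 member (Areg) was higher in the fit of 2 populations, and 1 in that fit with the replicate block. Over all genes, 15 were higher there, but 30 with library totals, 88 with DESeq2, 50 with limma voom, 71 with the replicate block on 9 libraries, 216 in the fit of 2 populations, 1422 in that fit with the block, and 4 to 63 leaving out a library. Lower genes numbered 1066, but 2182 in the fit of 2 populations with the block. Lower genes between the LP populations numbered 1211 to 2290 leaving out a library. Apart from Areg, the block within HR+ LP and ML changed no member's call. Dividing by the longest single transcript gave Erbb2 receptor shares of 26.8%, 33.8% and 38.9%. Depth limits Ereg, Nrg1 and Erbb4 in ML.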

Other observations

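Hbegf lies 209 kb from Cd14, the gene used in the sort, on chromosome 18, with 7 protein-coding genes between them. This was looked at after the values were seen. Cd14 fell in both steps, by 1.78 and 3.71 on the log2 scale (adjusted p = 5.87e-05 and 9.04e-07), as did Hbegf. Ankhd1, a gene between them, averaged 191, 202 and 190 CPM in HR- LP, HR+ LP and ML, and Slc35a4 46.5, 58.9 and 62.5 CPM. Among the 7, E230025N22Rik was lower in ML than in HR+ LP (log2 fold change -2.09, adjusted p = 0.0166) and than in HR- LP (-3.14, adjusted p = 0.000292). Against HR- LP, ML also had Slc35a4 higher (0.42, adjusted p = 0.0223) and Apbb3 lower (-0.47, adjusted p = 0.0460). No other gene of the 7 was called in any comparison.

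Within the ligand cluster on chromosome 5, the long noncoding RNA gene Gm19619 lies between Areg and Btc. It had 0 counts in the HR- LP libraries and averaged 2.94 ± 1.43 (SD, n = 3) CPM in HR+ LP and 4.71 ± 1.86 CPM in ML.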
